A study of Homo sapiens with 8 samples.

Results

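Galectins are small proteins that bind beta-galactoside sugars on glycoproteins and glycolipids and crosslink them at the cell surface and in the extracellular matrix. They are grouped by build into prototype galectins with 1 sugar-binding domain (LGALS1, LGALS2, LGALS7), the chimera LGALS3 with a self-associating tail, and tandem-repeat galectins with a pair of such domains (LGALS4, LGALS8, LGALS9). LGALS3BP is not a galectin but a large secreted glycoprotein of the scavenger receptor family whose sugars LGALS3 and LGALS1 bind, and it is known as an interferon-induced gene in many human cells. The members described here were all clones whose gene name in the deposited table starts with LGALS, which gave 10 clones of 8 genes among 13340 clones on the array. The table held 9841 genes with a clone in the fit. LGALS1 and LGALS8 had 2 clones each and the other genes 1. LGALS3BP was included as a gene already seen to be higher in the derivatives, so its difference from the parental line is given as a description with no test, while the galectins entered by name.

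The samples were CPR20, CPR40, CPR55 and CPR70, cisplatin-resistant derivatives of the human ovarian cancer cell line A2780, each set against the cisplatin-sensitive parental line CPR00. Cells were grown under normal conditions, and no cisplatin is named in the growth conditions. Total RNA of a derivative, carrying the red dye Cy5, and of CPR00, carrying the green dye Cy3, shared each of 8 spotted cDNA arrays, 2 per derivative. Each derivative is a single line, the labels do not say whether its 2 arrays came from separate cultures, and the dyes were never exchanged, so an error below may be technical spread and a dye effect of a clone adds to every comparison with CPR00. In RNA from whole cultures, fewer cells that express a gene and less RNA per cell cannot be told apart. Log2 ratios are derivative over parental line after normalisation within each array.

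Between 26.4% and 60.3% of clone spots lay above the background level in the derivative channel and 20.3% to 41.9% in the parental channel, that level being set from the empty spots of the same array and channel. Of 11 measured markers of epithelial ovarian carcinoma, KRT18 was above background on 8 arrays in the derivatives and 4 in CPR00, while WT1 and MSLN were above it on none in either channel. The rest of that list was above background on at most 2 arrays in either channel. Of 10 measured leukocyte and macrophage markers, 5 were above background on no array in either channel, and the others on up to 5 arrays in the derivatives and up to 3 in CPR00. Of 12 endothelial and fibroblast markers, 4 (COL3A1, COL1A2, PDGFRB and LUM) fell and 0 rose in the mean of the derivatives. The other 8 did not pass, among them THY1 at a log2 ratio of 0.83. Over all 9841 genes 4.89% fell and 6.84% rose. Arrays of the same replicate number were more alike than arrays of the same derivative: among the 1319 brightest clones, the correlation of log2 ratios across clones ran from 0.728 to 0.936 for pairs sharing a replicate number, and from 0.592 to 0.675 for the pair of arrays of each derivative.

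The CPR55 replicate 1 array stood apart in a way that reaches LGALS3BP. Rows of the table were put into 32 groups of 480 by their row number, read as repeats of 16 lines of 24 with lines taken modulo 8 and columns modulo 4, a grouping chosen after the data were seen. For each group, the derivative intensities on an array were correlated with the mean of the other 3 arrays of its replicate number. Of the 256 correlations, 252 lay between 0.693 and 0.965, with a median of 0.902. The other 4 were 0.22, 0.24 and 0.31 on CPR55 replicate 1 and 0.39 on CPR20 replicate 1. LGALS3BP and LGALS8 clone 1 lie in the group at 0.22, and LGALS8 clone 2 lies in the low group of CPR20 replicate 1. In the group that holds LGALS3BP, the rows at the seventh to twelfth places of each 12, where it lies, matched the other arrays at 0.21 as listed on CPR55 replicate 1, and at 0.912 when read 6 places earlier. Places are counted within the group, and this shift was the best of those searched, up to 24 places either way. LGALS clones and called list genes that use these spots are therefore given with them and with the 1787 clone spots of the 4 low groups left out. Counts over clones or genes, list counts and chromosome neighbours include these spots unless stated.

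**Figure D1:**
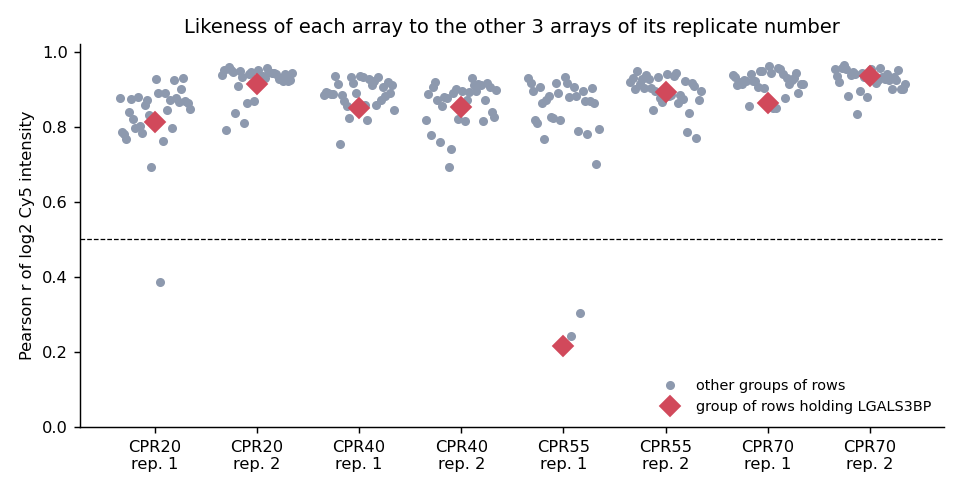
Pearson correlation of log2 derivative (Cy5) intensity between an array and the mean of the other 3 arrays of its replicate number, for 32 groups of 480 rows on each of 8 arrays. Each point is a group of rows, the diamond is the group that holds LGALS3BP, and the dashed line is 0.5. On CPR55 replicate 1 the diamond lies at 0.22, and on the other 7 arrays it lies among the other groups.

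LGALS3BP was far brighter in most derivative channels than in the parental channel, where it was not well above background on any of the 8 arrays. The derivative intensity was 1953.6 and 796.5 in CPR20, 3207.9 and 1189.9 in CPR40, 147.6 and 3043 in CPR55, and 238 and 601.9 in CPR70 (replicate 1 first). The parental intensity on the same arrays was 86.1 and 19.9 beside CPR20, 121.5 and 44.3 beside CPR40, 172.4 and 51.1 beside CPR55, and 236.7 and 169.2 beside CPR70. The derivative channel was above background on 7 arrays, all but CPR55 replicate 1, and on CPR70 replicate 1 it was almost equal to the parental intensity before normalisation.

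**Figure D2:**
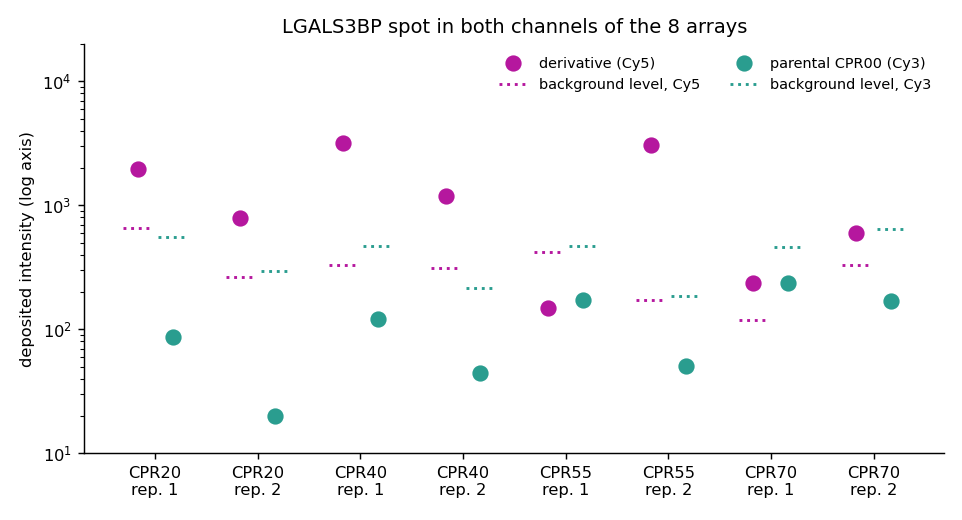
Deposited intensity of the LGALS3BP spot (log axis) on the 8 arrays, with the derivative in Cy5 left of CPR00 in Cy3. Dotted lines mark the background level of that array and channel. The derivative points lie above their line on 7 of 8 arrays, and the parental points lie below theirs on all 8.

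The log2 ratio of LGALS3BP was 3.49 and 3.15 in CPR20, 4.14 and 3.27 in CPR40, 0.21 and 4.39 in CPR55, and 0.97 and 1.52 in CPR70. It was above 0 on 8 of 8 arrays, as for 978 of 10807 clones with complete values (9.05%), and the 2 CPR55 arrays were the farthest apart of any derivative. The mean over the 4 derivatives was 2.64 ± 0.39 (SE of the limma fit, n = 8 arrays). Since the parental channel was dim, the fold is a lower bound: with the parental level set to the dimmest signal that was above background on each array, LGALS3BP was at least 2.31-fold higher in the derivatives. By derivative the bounds were at least 2.43-fold in CPR20, at least 5.13-fold in CPR40, at least 1.89-fold in CPR55 and at least 1.22-fold in CPR70. Each bound averages all arrays of the group, so that of CPR55 takes in replicate 1, where the derivative spot was not above background, and rests on 1 measured array of 2. The mean log2 ratio was 2.20 over the 4 replicate 1 arrays and 3.08 over the 4 replicate 2 arrays.

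Within CPR55 the gap of LGALS3BP between arrays was 4.18 log2 units, replicate 2 minus replicate 1, and 8 of 12448 clones (0.0643%) had a larger one. The row 6 places before LGALS3BP within its group of rows was listed as CTNND2 and looked up after the values were seen. It had 4237.9 in the derivative channel and 76 in the parental channel on CPR55 replicate 1, a log2 ratio of 4.23. On the other 7 arrays that row had log2 ratios of -0.58 to 0.92. The cause was not tested. With the low groups left out, LGALS3BP had 7 values, a mean of 3.17 ± 0.16 (SE), and 4.39 for CPR55, which then rests on 1 array. For the lower bound only the CPR55 replicate 1 value of LGALS3BP was left out, and the low groups stayed in the normalisation. It was at least 3.51-fold over the derivatives and at least 9.94-fold on the remaining CPR55 array.

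The order of the LGALS3BP log2 ratio over the derivatives was CPR70 (1.24 ± 0.39 SD), CPR55 (2.30 ± 2.96), CPR20 (3.32 ± 0.24) and CPR40 (3.71 ± 0.62), with 2 arrays each. Every neighbouring pair in that order overlapped in its arrays. Both CPR70 arrays lay below both CPR20 arrays and both CPR40 arrays, and the share of all clones with this pattern was not counted. Against the empty-spot median the parental spot was 0.324 and 0.218 beside CPR20, 0.499 and 0.669 beside CPR40, and 0.998 and 0.914 beside CPR70. The derivative spot was 7.55 and 5.77 in CPR20, 32 and 8.82 in CPR40, and 5.16 and 5.20 in CPR70. The gap between CPR70 and CPR20 thus rests in part on parental readings that were not above background. None of these differences passed: limma's F test among the derivatives gave an unadjusted p = 0.198 and an adjusted p = 1.00, the slope was -0.44 per 10 of the number in the derivative's name (SE 0.21, adjusted p = 1.00), and CPR70 minus CPR20 was -2.08 (SE 1.12, unadjusted p = 0.0997, adjusted p = 1.00). Over all 13186 clones 0 passed each of these tests after adjustment (0%), and 344, 253 and 260 had an unadjusted p under 0.05 (2.61%, 1.92% and 1.97%).

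With the low groups left out, CPR70 minus CPR20 kept its size at -2.08, and the slope was -0.31 per 10. The SE of CPR70 minus CPR20 went from 1.12 to 0.40 once the CPR55 replicate 1 value of LGALS3BP was dropped. That removal was chosen after the data were seen and leaves 1 CPR55 array, so the smaller error gives no test of the order. No difference of LGALS3BP among the derivatives passed after adjustment. Over all clones, 0 of 13124 passed limma's F test among the derivatives (0%), with 350 (2.67%) at an unadjusted p under 0.05. The order became CPR70, CPR20, CPR40 and CPR55, in which the arrays of CPR20 and CPR40 overlapped and those of the other neighbours did not. CPR55 was a single array there, at 4.39 against 4.14 on CPR40 replicate 1. The share of all clones with such gaps was not counted. All of these values use the same parental readings, which were not above background.

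LGALS3BP and LGALS9 are shown by their promoter windows because both are known as interferon-induced genes and among the windows of 7 LGALS genes only theirs held the core letters of an interferon response element, GAAA followed by any 2 bases and GAAA. The windows run from 250 bases before the start to 20 after it, 5′ to 3′ on the gene's strand, from RefSeq on GRCh38.p14. Capitals mark this motif and, in LGALS3BP, a CCAAT box. LGALS3BP is on the minus strand at chr17:78979904-78980173 and LGALS9 on the plus strand at chr17:27630938-27631207.
LGALS3BP: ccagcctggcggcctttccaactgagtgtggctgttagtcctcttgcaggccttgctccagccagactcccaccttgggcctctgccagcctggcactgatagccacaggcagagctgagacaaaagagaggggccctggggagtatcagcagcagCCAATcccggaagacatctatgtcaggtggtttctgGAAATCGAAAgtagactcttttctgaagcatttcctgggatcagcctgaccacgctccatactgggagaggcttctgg
LGALS9: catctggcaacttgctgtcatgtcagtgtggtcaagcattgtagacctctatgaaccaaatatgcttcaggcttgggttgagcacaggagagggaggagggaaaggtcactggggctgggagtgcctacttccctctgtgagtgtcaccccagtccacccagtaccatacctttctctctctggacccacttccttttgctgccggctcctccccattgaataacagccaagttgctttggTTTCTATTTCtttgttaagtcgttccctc
That motif, searched on both strands, stands at base 193 of the LGALS3BP window on the gene's strand and at base 242 of the LGALS9 window on the other strand, and 3.3% of 35116 such windows in the table hold it. CCAAT at base 157 of the LGALS3BP window is shared with 33.1% of windows. AP-1 (TGANTCA), GC box (GGGCGG) and TATA box (TATAAA) letters were in neither window. A match is a run of letters only, and LGALS1 had no window in the table.

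LGALS9, a tandem-repeat galectin secreted by many cells, lay near 0 on every array. Its derivative intensities were 2091.7 and 1783 in CPR20, 1617.5 and 523.7 in CPR40, 1098.8 and 300.1 in CPR55, and 1071.3 and 1689.2 in CPR70. Its parental intensities were 1105.2 and 1446.3 beside CPR20, 1414.3 and 466 beside CPR40, 589.2 and 244.3 beside CPR55, and 1467.9 and 2396.8 beside CPR70. Both channels were above background on all 8 arrays. Its log2 ratio was 0.01 and -0.18 in CPR20, -0.04 and -0.22 in CPR40, -0.07 and -0.31 in CPR55, and -0.08 and -0.48 in CPR70. It was below 0 on 7 of 8 arrays, and the mean of -0.17 ± 0.10 (SE) did not pass (limma adjusted p = 0.335). The LGALS9 clone can also bind transcripts of the near-identical copies LGALS9B and LGALS9C, so its value is that of the group.

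LGALS1, a prototype galectin abundant in many tumour and connective tissue cells, was measured by 2 clones that gave nearly the same ratios, and both had their highest values in CPR55. Clone 1 had log2 ratios of 0.05 and -0.16 in CPR20, -0.04 and -0.53 in CPR40, 0.72 and 0.85 in CPR55, and -0.03 and 0.25 in CPR70. Clone 2 had -0.02 and -0.22 in CPR20, -0.09 and -0.43 in CPR40, 0.54 and 0.79 in CPR55, and -0.15 and 0.07 in CPR70. The 2 clones differed by at most 0.17 on any array (r = 0.987 over 8 arrays that share the RNA and hybridisation, given as a description). For both, the 2 CPR55 arrays lay above the other 6, a pattern found in 379 of 10807 clones with complete values (3.51%).

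The LGALS1 spots were above background in both channels on all 8 arrays. Clone 1 had derivative intensities of 11330.7 and 5515.6 in CPR55, against 3022.1 and 2156.9 in CPR00 on the same arrays. Against CPR00 the CPR55 value was 0.79 ± 0.21 (SE) for clone 1 (limma adjusted p = 0.211) and 0.67 ± 0.20 for clone 2 (adjusted p = 0.273), so neither passed, and 83 of 13186 clones (0.629%) did. The limma F test among derivatives gave an unadjusted p = 0.035 for clone 1 and an unadjusted p = 0.0485 for clone 2, with adjusted p = 1.00 for both. In the mean of the derivatives, clone 1 was at 0.14 ± 0.11 (adjusted p = 0.453) and clone 2 at 0.06 ± 0.10 (adjusted p = 0.743), with ratios above 0 on 4 and 3 of 8 arrays.

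LGALS3, the chimera galectin found in cytoplasm, nucleus and secretions, was the 1 galectin called in the mean of the derivatives. Its log2 ratio was 0.54 and 0.63 in CPR20, -0.02 and 0.52 in CPR40, 0.61 and 0.23 in CPR55, and 0.85 and 0.95 in CPR70, above 0 on 7 of 8 arrays. The mean was 0.54 ± 0.11 (SE, limma adjusted p = 0.0181), so it rose, as 835 of 13186 clones did (6.33%). In the same test 1444 clones were called in either direction (11%), or 2548 with the replicate number as a block. Of the 9 galectin clones 1 rose and 0 fell, against 4.62% of clones that fell, so the share of members called was near the background. With the low groups left out LGALS3 was at 0.54 (adjusted p = 0.0167), and 875 of 13124 clones rose (6.67%).

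The rise of LGALS3 rests on dim spots. Its derivative intensities were 594.2 and 332.1 in CPR20, 338.4 and 229.3 in CPR40, 258.8 and 145.4 in CPR55, and 551.4 and 371.6 in CPR70, above background on 4 arrays. Its parental intensities were 307.8 and 132.9 beside CPR20, 382.3 and 59.1 beside CPR40, 160.7 and 52.7 beside CPR55, and 453.8 and 155.7 beside CPR70, above background on none. Set against the dimmest parental signal above background, LGALS3 was brighter only in CPR70, at least 1.18-fold higher. In CPR20 and CPR40, where 1 of 2 derivative spots was above background, it was below that signal (ratios of 0.938 and 0.752), and in CPR55 neither channel was above background, so these give no bound. The call was lost without either CPR20 array (adjusted p = 0.0552 and 0.0652), CPR40 replicate 2 (0.0536), CPR55 replicate 1 (0.0595) or CPR70 replicate 2 (0.0615), and in the replicate 1 arrays alone (0.50, adjusted p = 0.122), while the replicate 2 arrays alone passed (0.58, adjusted p = 0.0318). CPR70 had the highest ratio, 0.90 ± 0.07 (SD, n = 2 arrays), and both its arrays lay above both CPR20 arrays, but neither the derivative itself (limma adjusted p = 0.111, against 1.43% of clones called in CPR70) nor the difference among derivatives (adjusted p = 1.00) passed.

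**Figure D3:**
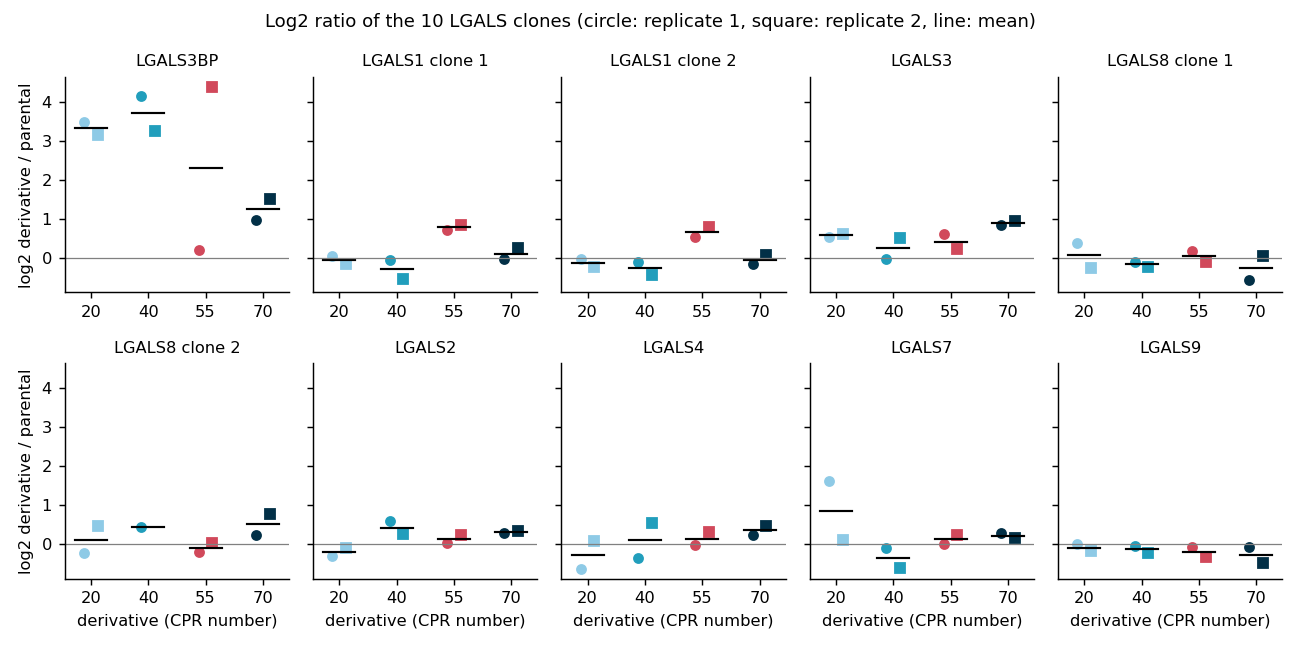
Log2 ratio of derivative over CPR00 for the 10 LGALS clones, by derivative. Circles are replicate 1 arrays, squares replicate 2 arrays and lines the mean of the arrays. LGALS3BP spans 0.21 to 4.39, both LGALS1 clones are highest in CPR55, and LGALS9 lies within 0.5 of 0 on all arrays.

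The other galectins were at or near background. LGALS8, a tandem-repeat galectin that binds damaged vesicles, had 2 clones. Clone 1 was above background on 2 arrays in the derivatives and 1 in CPR00, with log2 ratios of -0.56 to 0.40 and a mean of -0.08 ± 0.12 (SE, limma adjusted p = 0.744). Without the low groups its mean was -0.11 (adjusted p = 0.664, 7 arrays). On CPR55 replicate 1, where it shares the low group with LGALS3BP, its derivative intensity was 714.4, against 76.7 on CPR55 replicate 2. Clone 2 was found on 7 arrays and above background on none, with a mean of 0.25 ± 0.15 (adjusted p = 0.323), or 0.34 (adjusted p = 0.205, 6 arrays) without the low groups.

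LGALS2 and LGALS4, galectins known from the gut, were above background on no array in either channel, and their means were 0.17 ± 0.10 (SE, limma adjusted p = 0.310) and 0.08 ± 0.14 (adjusted p = 0.758). LGALS7, a keratinocyte galectin whose clone can also bind its copy LGALS7B, was above background on 1 array in the derivatives and none in CPR00. Its mean was 0.22 ± 0.17 (adjusted p = 0.471), with 1.62 on CPR20 replicate 1 and -0.61 to 0.29 on the other arrays. For these clones a change was not detectable at this signal. Over the 9 LGALS clones with complete values, 4 (both LGALS1 clones, LGALS2 and LGALS7) had ratios of 1 sign on both arrays of a derivative and of the other sign on both arrays of another, as did 2215 of 10807 clones (20.5%). LGALS13 (-0.10, adjusted p = 0.653), a placental galectin, and CLC (0.14, adjusted p = 0.688), the galectin of eosinophil crystals, carry other names and did not pass either.

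Clones whose 8 log2 ratios lay nearest to LGALS3BP, by Euclidean distance among 9196 named clones, were HLA-F (3.50), MGC10905 (3.69), ACTA2 (3.70), HLA-C (3.82) and ABCA3 (3.95). LGALS3BP itself lay 8.52 from a ratio of 0 on all arrays. HLA-F and HLA-C, MHC class I molecules whose clones can bind related HLA transcripts, lie in another of the low groups of CPR55 replicate 1. Their ratios in CPR55 were 0.09 and 3.95 for HLA-F and -0.06 and 3.34 for HLA-C. Pearson correlations with LGALS3BP over the 8 arrays were 0.739 for HLA-F, 0.552 for MGC10905, 0.536 for ACTA2, the smooth muscle actin, 0.730 for HLA-C and 0.337 for ABCA3, a lipid transporter. With the low groups left out, over 7 arrays, the nearest were MGC10905 (2.75, r = 0.955), ACTA2 (3.22, r = 0.631), HLA-F (3.50, r = 0.552), MGC2668 (3.53, r = 0.187) and ABCA3 (3.56, r = 0.013). MGC10905 had 2.61 and 2.31 in CPR20, 2.88 and 2.54 in CPR40, 2.67 and 2.51 in CPR55, and 0.52 and 1.08 in CPR70. Its lowest ratios were on both CPR70 arrays. All of these clones were picked for likeness to LGALS3BP over the same arrays, so a shared pattern is built into the choice.

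Genes that make, carry or read the sugars galectins bind were taken as lists, each gene by its brightest clone, in the mean of the derivatives. Over all 9841 genes 673 rose (6.84%) and 481 fell (4.89%), with a median log2 ratio of -0.003. Of the called list genes named below, ITGA3, COL3A1 and PDGFRB also passed in the authors' calibrated ratio (limma adjusted p = 0.0445, 0.0133 and 0.0300), and the others did not (adjusted p = 0.0685 to 0.613). Median centring in place of loess ended the calls of FUT8, B4GALT5, GCNT1, ST6GAL1, ST3GAL1, LAMP1, LAMB1, SLC3A2, CTNNB1 and EPCAM (adjusted p = 0.0675 to 0.306). For MAN2A2, B4GALT5, ST3GAL1, LAMP1, LAMB1, IRF7, EPCAM and ITGA3 the parental channel was above background on 0 of 8 arrays, and for MAN1A1 and PDGFRB the derivative channel was, so their log2 differences are set against a level near background. Of these, a fold could be bounded for ITGA3, at least 1.19-fold higher in the derivatives, and for MAN1A1 and PDGFRB, at least 1.48-fold and at least 1.33-fold lower, and for the other 7 the brighter channel lay on average below the dimmest signal above background in the dimmer one.

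Of 12 measured enzymes that trim and branch N-glycans, 2 rose and 1 fell, with a median of 0.16. MAN2A2, a Golgi mannosidase, rose by 1.05 ± 0.17 (SE, limma adjusted p = 0.00799) and FUT8, which adds core fucose, rose by 0.58 ± 0.13 (adjusted p = 0.025), both on 8 of 8 arrays. MAN1A1, an earlier mannosidase of the same pathway, fell by 1.61 on the log2 scale (SE 0.25, adjusted p = 0.00577) on 8 of 8 arrays. Other clones of MAN2A2 and MAN1A1 were at 0.127 and -0.394, so the clones of each gene disagree in size. With the low groups left out 3 enzymes of this list rose. FUT8 passed without CPR20 replicate 1 or CPR40 replicate 1 and missed the threshold without any 1 of the other 6 arrays (adjusted p up to 0.0869).

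Of 16 measured enzymes of galactose, lactosamine and O-glycan cores, 1 rose and 1 fell, with a median of -0.10. B4GALT5, a galactosyltransferase, rose by 0.57 ± 0.14 (SE, limma adjusted p = 0.0342, above 0 on 7 of 8 arrays), and GCNT1, which branches O-glycans, fell by 0.51 on the log2 scale (SE 0.11, adjusted p = 0.0213, on 8 of 8 arrays). B4GALT5 missed the threshold without any 1 of 7 arrays (adjusted p up to 0.109), all but CPR55 replicate 1, where its spot lies in a low group, and was at 0.69 (adjusted p = 0.0136) with the low groups left out. GCNT1 missed it without CPR20 replicate 2, CPR40 replicate 2, either CPR55 array or CPR70 replicate 2 (adjusted p up to 0.079). Of 12 measured genes of sialic acid capping or removal, 2 rose and 0 fell, with a median of 0.06. Capping can block galectin binding. ST6GAL1, which adds alpha-linked sialic acid to N-glycans, rose by 0.57 ± 0.10 (adjusted p = 0.00986) and ST3GAL1, which caps O-glycans, by 0.46 ± 0.10 (adjusted p = 0.0237). ST6GAL1 passed with any 1 array left out (adjusted p up to 0.0411), whereas ST3GAL1 passed without CPR40 replicate 1 or CPR70 replicate 2 and missed the threshold without any 1 of the other 6 (adjusted p up to 0.0809). With the low groups left out ST3GAL1 was at 0.45 (adjusted p = 0.056), so that 1 gene of this list rose, and 0 rose with median centring. With the replicate number as a block 2 rose and 1 fell.

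Of 35 measured glycoprotein and matrix partners, 4 rose and 1 fell, with a median of -0.01. With the replicate number as a block 9 rose and 3 fell, and over the 25 alternatives 1 to 9 rose and 0 to 3 fell. The integrin subunit ITGA3 rose by 0.85 ± 0.12 (SE, limma adjusted p = 0.00445), the collagen COL5A2 by 1.16 ± 0.21 (adjusted p = 0.0112) and the lysosomal glycoprotein LAMP1 by 0.56 ± 0.11 (adjusted p = 0.0148). LAMB1, a laminin chain named after its values were seen, rose by 0.44 ± 0.10 (adjusted p = 0.0307). LAMP1 and LAMB1 were above background on 1 array in the derivatives and none in CPR00. SLC3A2, the CD98 heavy chain that LGALS3 binds, fell by 0.91 on the log2 scale (SE 0.19, adjusted p = 0.0198). ITGA3 and COL5A2 passed with any 1 array left out, and COL5A2, whose spot lies in the low group of CPR20 replicate 1, was at 1.32 (adjusted p = 0.00876) with the low groups left out. LAMP1 missed the threshold without CPR20 replicate 1 or CPR70 replicate 2 (adjusted p up to 0.0524), SLC3A2 without the replicate 2 array of any derivative (adjusted p up to 0.0689), and LAMB1 without any 1 of 6 arrays, all but CPR40 replicate 1 and CPR55 replicate 1 (adjusted p up to 0.0958). Of 7 intracellular partners, 1 rose: CTNNB1, beta-catenin, by 0.44 ± 0.10 (adjusted p = 0.0249). A further CTNNB1 clone was at 0.253. CTNNB1 missed the threshold without any 1 of 7 arrays, all but CPR55 replicate 2 (adjusted p up to 0.0879).

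Of 13 measured interferon receptors and signal carriers, 3 rose and 0 fell, with a median of 0.31, or 5 and 1 with the replicate number as a block. The transcription factors IRF7 and IRF3 rose by 0.86 ± 0.14 (SE, limma adjusted p = 0.00727) and 0.79 ± 0.13 (adjusted p = 0.00761), each on 8 of 8 arrays. A further IRF7 clone was at -0.112, so the clones of that gene disagree. IRF7 and IRF3 passed with any 1 array left out. By derivative IRF7 was at 0.78 in CPR20, 0.33 in CPR40, 1.14 in CPR55 and 1.18 in CPR70.

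Among the marker lists, 1 of 11 ovarian carcinoma markers rose, EPCAM by 0.82 ± 0.19 (SE, limma adjusted p = 0.0316), while KRT18 was at 1.54 (adjusted p = 0.0674). EPCAM was at 0.01 in CPR20, 0.05 in CPR40, 0.83 in CPR55 and 2.38 in CPR70, and its spot was above background on 2 arrays in the derivatives, so its mean rests on CPR55 and CPR70. KRT18 passed with the replicate number as a block (adjusted p = 0.000369), which makes the count 2, and also with median centring (0.00955), normexp background (0.04998), dim spots missing (0.0457) and the replicate 2 arrays alone (0.00101), and ran from 0.31 to 2.77 over 24 alternatives. Of the leukocyte and macrophage markers 0 of 10 passed, with CD3E at -0.47 (adjusted p = 0.174) and CD14 at -0.20 (adjusted p = 0.259). The matrix genes COL3A1, COL1A2 and LUM fell by 2.603, 2.18 and 1.97 on the log2 scale and the receptor PDGFRB by 0.84 (adjusted p = 0.00118, 0.00914, 0.0399 and 0.0213). These falls differed in size between the replicate 1 and the replicate 2 arrays. COL3A1 was at -3.29 and -1.92, COL1A2 at -3.12 and -1.24, LUM at -3.24 and -0.70, and PDGFRB at -0.47 and -1.22. In the same list THY1, a surface protein of fibroblasts named after its values were seen, was at 0.83 (adjusted p = 0.0630, above 0 on 7 of 8 arrays), and PDGFRA and COL1A1 were at -0.03 and -0.19 (adjusted p = 0.910 and 0.378). THY1 passed in 5 of 24 alternatives, among them the replicate block (adjusted p = 0.00396), which makes the count 1 rose and 4 fell. COL3A1 and COL1A2 passed with any 1 array left out. EPCAM missed the threshold without CPR20 replicate 2, either CPR40 array, CPR55 replicate 1 or CPR70 replicate 2 (adjusted p up to 0.0997). PDGFRB missed it without CPR20 replicate 2, CPR40 replicate 2, either CPR55 array or CPR70 replicate 2 (adjusted p up to 0.0757), and LUM without any 1 of 6 arrays, all but CPR40 replicate 2 and CPR55 replicate 2 (adjusted p up to 0.118). The part of these markers in the values of LGALS3BP and the galectins was not tested.

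**Figure D4:**
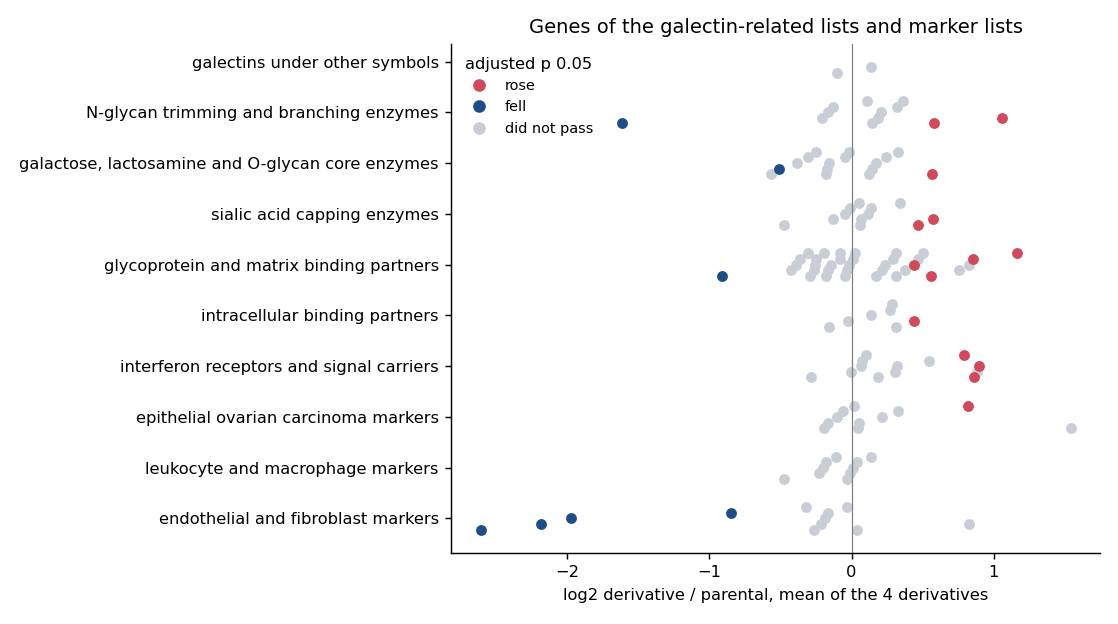
Log2 ratio of derivative over CPR00 in the mean of the 4 derivatives for each measured gene of 10 lists, by its brightest clone. Red points rose, blue points fell and grey points did not pass an adjusted p of 0.05. COL3A1 is the lowest point at -2.603, and COL5A2 is the highest point that passed at 1.16.

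Along the chromosome, the 10 nearest measured genes to each of LGALS3BP, LGALS1 and LGALS3 were read by gene order on GRCh38.p14, 5 on each side, a choice made after the data were seen. Over all genes 6.84% rose and 4.89% fell. Around LGALS3BP on chromosome 17, 1 of 10 rose, GAA, a lysosomal glucosidase, by 0.49 ± 0.10 (SE, limma adjusted p = 0.0213), and 0 fell. Its nearest measured neighbour TIMP2, a metalloproteinase inhibitor, was at 0.30 (adjusted p = 0.165). Around LGALS1 on chromosome 22, 1 rose, GCAT by 0.85, and 3 fell, among them CDC42EP1 by 1.79 and TRIOBP by 0.74 on the log2 scale. Around LGALS3 on chromosome 14, 1 rose, GCH1 by 0.72 with its parental channel above background on no array, and 1 fell, CNIH1 by 0.72 on the log2 scale.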

How the data were processed

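RNA of 4 A2780 derivatives and their parental line was measured on 8 2-colour spotted cDNA arrays. The deposited table gives red (derivative) and green (parental) intensity per spot on a linear scale, with no background column, a calibrated ratio that the authors made, a constant per array (0.553 to 1.65) times red over green as recomputed from the values, and a spot area, an other deposited measure with no unit. The deposited series matrix holds log2 values that follow the log2 of that ratio, read as derivative over parental from the dyes in the labels. The scanning software is not given in the sources used here. A further 8 columns in it belong to 2 arrays with no sample label and were left aside.

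An offset of 50 was added to intensities, values of spots whose area is 0 were treated as missing, 933 empty or unnamed spots were dropped, log2 ratios were normalised by loess within arrays, and spots of a clone were averaged. The 13186 clones with a value in every derivative were fitted with limma 3.58.1 in R 4.3.3, which was tested on simulated data. Calls needed a Benjamini-Hochberg adjusted p under 0.05 over all clones. Figures were drawn with matplotlib 3.10.9. The parental line is the other channel, so its own spread is left out. The background level is the median of the empty spots plus 2.6 scaled median absolute deviations. Lower bounds use single-channel values after loess and Aquantile normalisation, open to dye bias without dye swaps. With 2 arrays per derivative, the number of arrays limits the precision, and signal near background limits the dim clones.

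Members and gene lists were chosen with earlier results of these data known. Named are all LGALS clones, the 5 clones nearest to LGALS3BP, and per list up to 4 genes with the smallest p, or 2 that did not pass where fewer than 2 passed; LAMB1, THY1, PDGFRA, COL1A1, CTNND2 and chromosome neighbours lie outside this rule. Some genes that these choices name are not reported here. Symbols and promoters came from RefSeq tables (GRCh38.p14), and 7 of 8 LGALS genes had a promoter window. Deviations of same-numbered arrays from their group means correlated at 0.23 to 0.364 between derivatives. With 2 replicate numbers this is a hint from the data that the numbers mark sets of arrays, and values per set and with the number as a block were computed. Alternatives were the offset, background and normalisation method, the authors' ratios, spot and clone filters, a trended prior, each array left out, the replicate block and each set alone. Leaving out the 4 low groups of rows was added after seeing the data.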

Additional observations from a re-analysis of the deposited data

Results flagged for a closer look

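Some LGALS clones had log2 ratios of 1 sign on both arrays of a derivative and of the other sign on both arrays of another, a pattern that 20.5% of clones with complete values showed for at least 1 pair of derivatives. No pair below was tested on its own except CPR70 minus CPR20 of LGALS2 (limma adjusted p = 1.00), and the test among all 4 derivatives gave an adjusted p of 1.00 for each clone. For LGALS1, CPR55 minus CPR40 was 1.07 by clone 1 and 0.93 by clone 2, and CPR55 minus CPR20 was 0.78 by clone 2. For LGALS2, whose spots were not above background, CPR20 was the low derivative, with CPR40, CPR55 and CPR70 higher by 0.62, 0.33 and 0.52. For LGALS7, near background as well, CPR40 minus CPR20 was -1.21, CPR55 minus CPR40 was 0.48 and CPR70 minus CPR40 was 0.58.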

How the results depend on the processing

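The mean log2 ratio of LGALS3BP was positive in all 24 alternatives and ran from 1.87 with an offset of 200 to 3.22 with an offset of 1, and from 2.12 to 3.17 with 1 array left out. It was 3.002 in the authors' ratios, the replicate block left it at 2.64, and no difference of LGALS3BP among derivatives passed in any of them. Its value in CPR55 was 0.21 or 4.39 with 1 CPR55 array left out. The slope stayed negative, from -0.68 to -0.21 per 10. LGALS3 stayed positive (0.36 to 0.66) in the 23 alternatives that kept it but missed the threshold in 9, among them median centring (adjusted p = 0.0764) and the authors' calibrated ratio (0.306), and it was not kept when dim spots were set to missing. The cause was not tested.

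The count of clones called in the mean, 1444, was 725 after median centring, 286 and 285 in the authors' calibrated and series matrix values, 2548 with the replicate block, 2253 in the replicate 2 arrays alone, and 764 to 1211 with 1 array left out. The replicate block changed the calls of KRT18 and THY1, which then passed (adjusted p = 0.000369 and 0.00396), and of no other gene named from the lists and no LGALS clone. Of the called list genes, the authors' calibrated ratio and series matrix values ended the calls of all named but ITGA3, COL3A1 and PDGFRB, among them IRF7 (adjusted p = 0.116 and 0.114), IRF3 (0.0778 and 0.0765), COL5A2 (0.0685 and 0.0676), COL1A2 (0.0831 and 0.0817) and ST6GAL1 (0.0787 and 0.0771). Normexp background ended those of SLC3A2 (0.0638), LAMB1 (0.0631), GCNT1 (0.138) and PDGFRB (0.101). The replicate 1 arrays alone ended the calls of FUT8, GCNT1, B4GALT5, ST3GAL1, LAMP1, LAMB1, SLC3A2, CTNNB1, EPCAM and PDGFRB. In the replicate 2 arrays alone the calls of ST3GAL1, LAMP1 and EPCAM were lost. SLC3A2 was at -0.49 in the replicate 1 arrays and -1.33 in the replicate 2 arrays. The counts among derivatives were 0 apart from 2 with normexp background, 0 to 4 for the slope and 0 to 12 for CPR70 minus CPR20 with 1 array left out. Galectins that did not pass changed sign under some settings, and none passed there: LGALS8 clone 1 (0.064 with normexp, -0.156 to 0.0052 with 1 array left out), LGALS13 (0.073 with normexp, 0.12 in the replicate 1 arrays alone), LGALS2 (-0.026 with median centring), LGALS4 (-0.095 with median centring, -0.19 in the replicate 1 arrays alone, -0.030 to 0.195 with 1 array left out), LGALS9 (0.0083 with median centring), CLC (-0.055 with median centring, -0.0801 in both sets of the authors' ratios, -0.0035 to 0.27 with 1 array left out) and LGALS7 (-0.029 in the replicate 2 arrays alone). Each fit with 1 array left out assumes that the lone array of that derivative varies like the others. Most galectin spots lay near background, which limits what these arrays can show.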
